A study of Penicillium oxalicum with 72 samples.

Results

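*POX08292*/*PoxMBF1* was followed through the 72 RNA-sequencing libraries of *Penicillium oxalicum*. It is 1 gene, chosen by its identifier, out of 9821 genes listed in at least 1 library, and it passed the filter on low values (a mean of 1 FPKM or more over all libraries), as did 8898 genes in all. FPKM counts sequenced fragments relative to transcript length and to the mapped reads of a library, so levels of different genes can be set side by side. The domain annotation supplied with the study gives its product an N-terminal domain of multiprotein bridging factors and a helix-turn-helix of the Cro/C1 type.

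Multiprotein bridging factors are transcriptional coactivators that do not act alone. In *Saccharomyces cerevisiae*, Mbf1 links the basic leucine zipper (bZIP) activator Gcn4, which switches on amino acid biosynthesis genes during starvation, to the TATA-binding protein of the basal transcription machinery. In *P. oxalicum*, *PoxMBF1* is counted among the regulators of plant-biomass-degrading enzymes, beside the activators ClrB and XlnR.

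All 72 libraries come from strain Δ*PoxKu70*, a derivative of the wild-type strain HP7-1 that lacks *PoxKu70*, a gene of non-homologous end joining whose loss eases gene targeting. *PoxMBF1* itself was not altered. Mycelium grown on GLU (glucose) was moved to medium with Avicel, a crystalline cellulose (AV), wheat bran (WB), the cellulose ethers methyl cellulose (MC) and hydroxyethyl cellulose (HEC), or again GLU as the carbon source, or to NC, the same medium with no carbon source. Mycelium was collected 4, 12, 24 and 48 h after the transfer, in 3 biological replicates of each of the 24 conditions. The labels contradict themselves for 13 libraries, the 12 of HEC, whose longer wording says methyl cellulose, and the 24 h NC library of replicate 3, whose longer wording says 4 h. Their short names were followed here.

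A library listed between 9243 and 9568 genes, and its FPKM summed to between 924393 and 1255914. No read count is in the tables used here. FPKM measures a share of the mRNA, so a change of this gene and an opposite change of the other mRNA cannot be told apart. Libraries differed by factors of 0.706 to 1.32 when each was scaled to the others by the median of ratios over genes listed in every library. In 17 of 20 comparisons with NC the log2 fold change of the median gene was below -0.1, down to -0.42 for MC at 24 h. Rescaling by these factors shifted the fold changes of *PoxMBF1* against NC by -0.10 to 0.42, and rescaled values are given where they alter a call or a direction.

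*PoxMBF1* was strongly transcribed everywhere. Its FPKM lay between 160.1 and 1139.9 over the 72 libraries, with a median of 558. Counted from the gene with the highest FPKM, it ranked between 122 and 1110 among all genes of a library (median 323.5). The TF list of the study holds genes with a transcription factor domain, *PoxMBF1* included, which the study had picked as differentially expressed genes (DEGs) on these samples. Within it, *PoxMBF1* ranked between 2 and 26, with a median of 6, and it was among the first 5 in 30 of the 72 libraries.

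On AV, *PoxMBF1* was high at 4 h with 725, 648 and 560.5 FPKM in replicates 1, 2 and 3. At 12 h, the libraries gave 626, 827 and 1139.9 FPKM, the widest absolute spread of any condition (864 ± 259, SD, n = 3). At 24 h, they gave 189, 186 and 183 FPKM, all below every AV library of 4 or 12 h. At 48 h, the level was back at 559, 747 and 599 FPKM, and these libraries overlapped with those of 4 h and 12 h.

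On WB, *PoxMBF1* stood at 515, 469 and 483 FPKM at 4 h. The libraries of 12 h gave 490.1, 651 and 577 FPKM, and those of 24 h gave 568, 452 and 571 FPKM. These 3 time points overlapped with each other. At 48 h, the level was 241, 215 and 178 FPKM, with no overlap with any earlier WB library.

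The cellulose ethers kept the gene high throughout. On MC, replicates 1, 2 and 3 had 554, 709.6 and 678 FPKM at 4 h, and 556, 665 and 520.1 FPKM at 12 h. They had 568, 549 and 563 FPKM at 24 h, and 738, 758 and 640.2 FPKM at 48 h. The MC libraries of 24 h were close to each other (560.0 ± 9.63, SD, n = 3). On HEC, the values were 720.3, 502 and 596 FPKM at 4 h, and 576, 630.1 and 830.3 FPKM at 12 h. They were 637, 568 and 543 FPKM at 24 h, and 615, 898 and 731 FPKM at 48 h. No MC or HEC library was below 502 FPKM.

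On GLU, *PoxMBF1* began among the highest levels, with 747, 739 and 678 FPKM at 4 h and 698, 652 and 541 FPKM at 12 h. At 24 h, it stood at 223, 394 and 261 FPKM, with replicate 2 apart from the others. At 48 h, it stood at 215, 213 and 229.7 FPKM, with no overlap with the libraries of 4 or 12 h.

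Without a carbon source, the gene was low except at 12 h. The NC libraries had 246.2, 271 and 239.96 FPKM at 4 h, then 402, 461 and 494 FPKM at 12 h. They had 230.5, 160.1 and 193 FPKM at 24 h, and 186, 220.01 and 199 FPKM at 48 h. All 3 libraries of 12 h lay above all NC libraries of the other times.

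**Figure D1:**
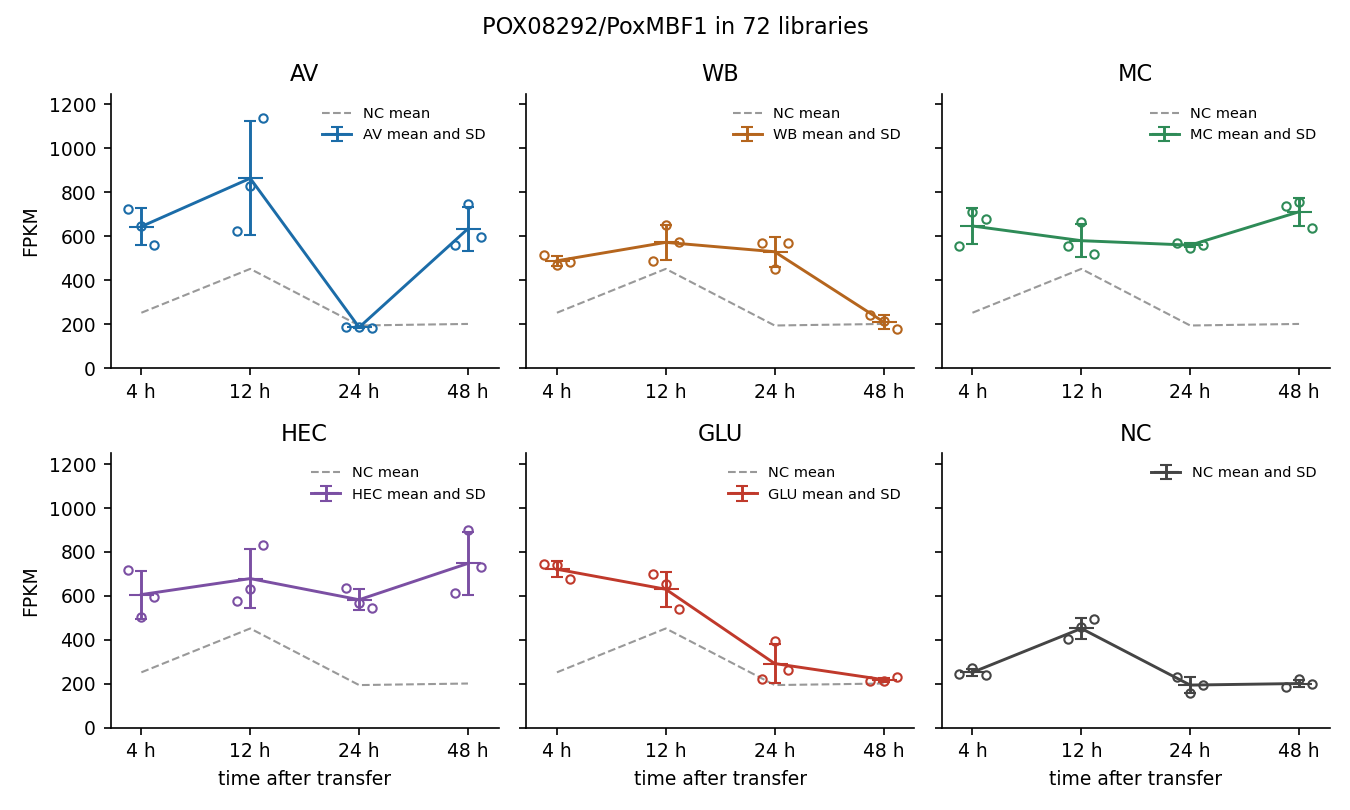
FPKM of *POX08292*/*PoxMBF1* (vertical axis, from 0) against time after the transfer, 1 panel for each medium; open circles are single libraries, crossbars and error bars are the mean and SD of 3 libraries, and the dashed line repeats the NC mean. The level stays at 502 FPKM or above on MC and HEC at every time, is down to 183 to 189 FPKM on AV at 24 h and back at 559 FPKM or more at 48 h, and declines late on WB and GLU.

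Ordered by their means, the 24 conditions ran from AV at 12 h (864 FPKM) to AV at 24 h (186 FPKM), a ratio of 4.65. With rescaled values, the ratio was 7.25. Of the 23 pairs of neighbours in this order, 21 had overlapping libraries, so most neighbours did not differ beyond their spread. The exceptions were NC at 12 h above GLU at 24 h (402 against 394 FPKM for the nearest libraries) and NC at 4 h above GLU at 48 h (239.96 against 229.7 FPKM). AV at 12 h, HEC at 48 h (748 ± 142 FPKM), GLU at 4 h (721.5 ± 37.5 FPKM) and MC at 48 h (712 ± 62.96 FPKM, SD, n = 3 each) headed the order. NC at 48 h (202 ± 17.1 FPKM), NC at 24 h (194.5 ± 35.2 FPKM) and AV at 24 h (186 ± 3.28 FPKM, SD, n = 3 each) closed it.

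The widest gap between consecutive libraries, as a ratio, was 1.45, between 271 and 394 FPKM. Below it lay 20 libraries, which are all libraries of NC at 4, 24 and 48 h, of AV at 24 h, of WB at 48 h and of GLU at 48 h, and replicates 1 and 3 of GLU at 24 h. The other 52 libraries lay above it. All 3 replicates were on the same side in 23 of the 24 conditions, GLU at 24 h being the exception. On the log2 scale, the SD of the 24 condition means was 0.73, against a pooled SD of 0.21 within conditions. The median gene tested had 0.52 and 0.19, and 70.8% of genes tested had a smaller SD of condition means.

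**Figure D2:**
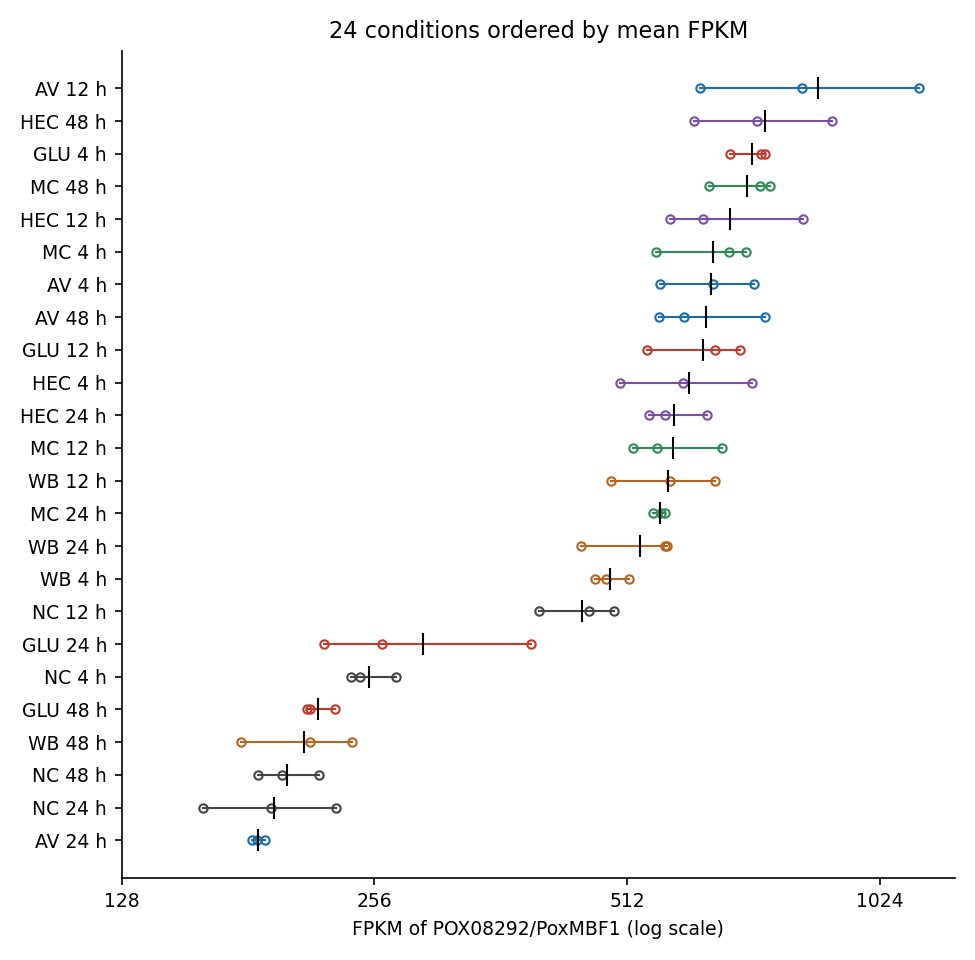
FPKM of *POX08292*/*PoxMBF1* on a log scale (horizontal axis) in the 24 conditions, ordered by mean; circles are the 3 libraries of a condition, joined by a line, and black ticks are means. Libraries of the 17 uppermost conditions lie at 402 FPKM or above, those of the 6 lowest at 271 FPKM or below, and GLU at 24 h has libraries on both sides.

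The comparison with NC at the same time asks what each carbon source adds to the state without one. log2 fold changes are differences of log2(FPKM + 1) with their SE, from limma fits on the 3 against 3 libraries of a comparison. A gene was called when it changed 2-fold or more (a log2 difference of 1) with *p* no higher than 0.05 before adjustment. The share of all genes tested that was called higher is given for each comparison as the background. All carbon sources share the same 3 NC libraries at a time point, so their results there are not independent of each other.

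*PoxMBF1* was called higher than on NC in 10 of the 20 comparisons and lower in none, and it held in all 10 with an adjusted *p* of at most 0.05. Of the 8898 genes tested, 1.83% were called higher in 10 or more comparisons. The background per comparison ran from 2.53% to 11.9% of genes called higher.

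At 4 h, the gene was higher by 1.51 ± 0.09 on GLU (limma, adjusted *p* = 2.05e-05, background 7.78%). It was higher by 1.35 ± 0.13 on MC (limma, adjusted *p* = 0.000420, background 4.96%). The difference was 1.34 ± 0.13 on AV (limma, adjusted *p* = 0.000508, background 4.24%) and 1.25 ± 0.16 on HEC (limma, adjusted *p* = 0.00329, background 2.75%). WB stayed just under the 2-fold threshold with 0.95 ± 0.12 (limma, adjusted *p* = 0.000286, background 11.9%). It passed with rescaled values (1.14) and without replicate 2 of NC (1.00). Every library on the 5 carbon sources lay above every NC library at this time. The share of all genes that lay apart in this way is not given here.

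At 12 h, when NC itself was at 452 FPKM, no carbon source passed the threshold of 2-fold. AV came nearest with 0.90 ± 0.23 (limma, adjusted *p* = 0.0293, background 3.17%). It passed with rescaled values (1.31) and without replicate 1 of AV (1.11). Replicates 1 and 3 of AV at 12 h were also the least alike of all replicate pairs over all genes tested (Pearson's r = 0.950). HEC gave 0.57 ± 0.15 (limma, adjusted *p* = 0.0257, background 2.53%) and GLU gave 0.48 ± 0.12 (limma, adjusted *p* = 0.00923, background 7.52%). MC gave 0.36 ± 0.13 (limma, adjusted *p* = 0.0373, background 4.47%). WB gave 0.34 ± 0.13 (limma, adjusted *p* = 0.0556, background 6.93%), and its libraries overlapped with those on NC.

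At 24 h, the carbon sources separated. *PoxMBF1* was higher on HEC by 1.59 ± 0.15 (limma, adjusted *p* = 0.000254, background 3.45%) and on MC by 1.54 ± 0.13 (limma, adjusted *p* = 1.98e-05, background 5.95%). On WB it was higher by 1.45 ± 0.15 (limma, adjusted *p* = 9.13e-05, background 5.80%). GLU gave 0.56 ± 0.24 (limma, adjusted *p* = 0.105, background 4.93%), with overlapping libraries, and 0.33 without its replicate 2. AV gave -0.05 ± 0.13 (limma, adjusted *p* = 0.778, 95% confidence interval -0.34 to 0.25, background 4.12%), and its 3 libraries lay within the range of those on NC. Without replicate 3 of NC, whose labels disagree, the values were 1.59 for HEC, 1.54 for MC, 1.45 for WB, 0.56 for GLU and -0.05 for AV.

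At 48 h, the gene was higher on HEC by 1.87 ± 0.15 (limma, adjusted *p* = 0.000162, background 4.96%) and on MC by 1.81 ± 0.10 (limma, adjusted *p* = 1.50e-05, background 4.32%). AV was again high, by 1.64 ± 0.13 (limma, adjusted *p* = 8.91e-05, background 5.95%). WB gave 0.06 ± 0.12 (limma, adjusted *p* = 0.721, 95% confidence interval -0.24 to 0.35, background 4.50%). GLU gave 0.12 ± 0.07 (limma, adjusted *p* = 0.192, 95% confidence interval -0.05 to 0.30, background 5.27%). Both overlapped with NC.

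**Figure D3:**
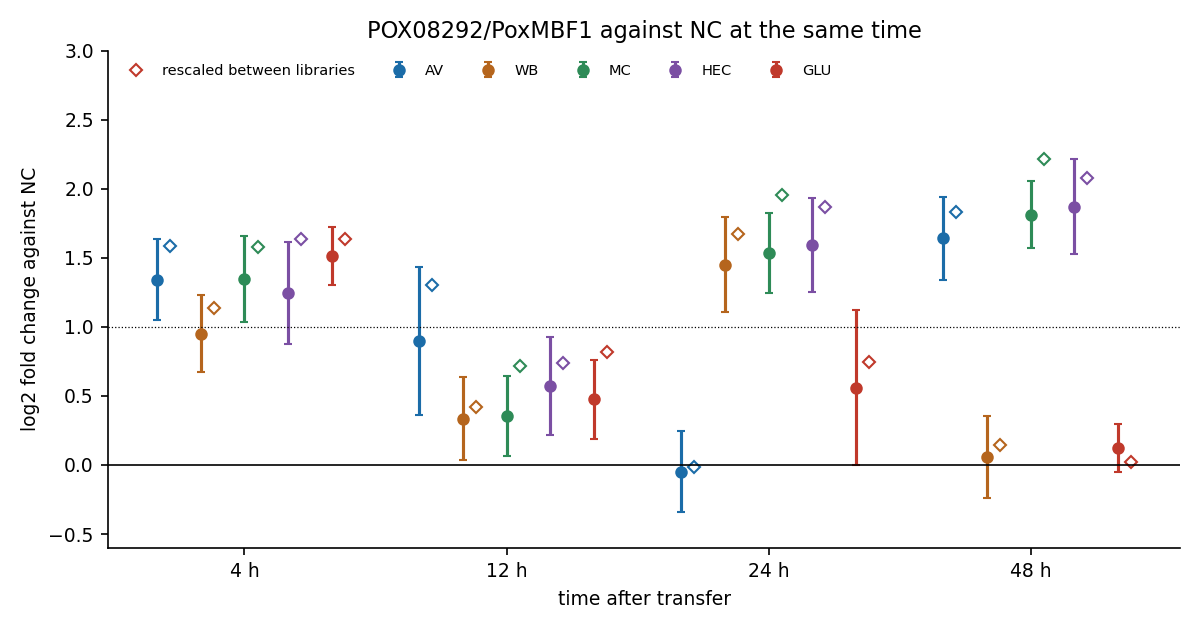
log2 fold change of *POX08292*/*PoxMBF1* against NC at the same time (vertical axis) for 5 carbon sources at 4 times; filled circles are deposited FPKM with 95% confidence intervals, open diamonds are rescaled values, and the dotted line marks 2-fold. The 4 h values lie between 0.95 and 1.51, those of 12 h between 0.34 and 0.90, and at 24 h and 48 h the carbon sources fall into a group at or above 1.45 and a group at or below 0.56.

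Over the 4 time points together, the mean difference from NC on the log2 scale was 1.32 for HEC and 1.26 for MC, where every library lay above every NC library of its time. It was 0.96 for AV, 0.70 for WB and 0.67 for GLU, with 0.45 for WB without the 24 h time point and 0.39 for GLU without that of 4 h. In an exact permutation test within time points, two-sided and with 160000 arrangements, HEC and MC each had *p* = 1.25e-05, the smallest the test can give. The exact *p* was 7.5e-05 for GLU, 0.0002 for AV and 0.000275 for WB. After Benjamini-Hochberg adjustment over the 5 carbon sources, the exact test gave at most 0.000275. The exact test was run on *PoxMBF1* alone. The share of all genes that reach such a *p* or lie apart from NC likewise is not given here, so neither sets *PoxMBF1* apart.

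The comparison with GLU sets AV, WB, MC and HEC against a sugar that is taken up directly. By the study's account, WB itself contains some free GLU. At 4 h and 12 h, none of the 8 comparisons was called. At 4 h, the difference was -0.17 ± 0.11 for AV (background of genes called in either direction 20.6%), -0.16 ± 0.11 for MC (17.5%) and -0.26 ± 0.14 for HEC (20.3%). WB was lower by less than 2-fold, -0.56 ± 0.09 (limma, adjusted *p* = 0.00135, background 19.2%). At 12 h, the difference was 0.42 ± 0.23 for AV (background 25.4%), -0.14 ± 0.13 for WB (21.6%), -0.12 ± 0.13 for MC (22.9%) and 0.10 ± 0.15 for HEC (23.8%). The limma adjusted *p* of these 7 comparisons other than WB at 4 h was 0.139 or more.

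At 24 h, *PoxMBF1* was higher on HEC than on GLU by 1.03 ± 0.23 (limma, adjusted *p* = 0.0110, background 18.6%). This call was lost without replicate 1 of GLU (0.86), without replicate 3 of GLU (0.97) or without replicate 1 of HEC (0.97). MC gave 0.98 ± 0.21 (limma, adjusted *p* = 0.00804, background 23.5%) and WB gave 0.89 ± 0.23 (limma, adjusted *p* = 0.0214, background 16.8%). Without replicate 2 of GLU, both passed 2-fold, with 1.21 for MC and 1.12 for WB, and WB also passed without its own replicate 2 (1.00). AV gave -0.61 ± 0.21 (limma, adjusted *p* = 0.0627, background 16.6%). All 3 AV libraries lay below all 3 GLU libraries, and the value without replicate 2 of GLU was -0.37.

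At 48 h, the gene was higher than on GLU by 1.75 ± 0.13 on HEC (limma, adjusted *p* = 6.49e-06, background 21.9%). The difference was 1.69 ± 0.08 on MC (limma, adjusted *p* = 5.075e-07, background 27.6%) and 1.52 ± 0.11 on AV (limma, adjusted *p* = 9.25e-06, background 19.1%). WB did not pass, with -0.06 ± 0.11 (limma, adjusted *p* = 0.612, 95% confidence interval -0.31 to 0.18, background 15.8%). In all, 4 of the 16 comparisons with GLU were called higher and none lower. Backgrounds of 15.8% to 27.6% mean that a call in either direction was common among all genes here.

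Within a medium, the comparison of 48 h with 4 h shows how the level moved over the course. *PoxMBF1* fell by 1.71 ± 0.06 on the log2 scale on GLU (limma, adjusted *p* = 4.49e-08, background of calls in either direction 37.7%). On WB it fell by 1.22 ± 0.13 (limma, adjusted *p* = 4.27e-05, background 49.0%). NC gave -0.32 ± 0.11 (limma, adjusted *p* = 0.0332, background 30.5%), less than 2-fold. AV gave -0.03 ± 0.14 (limma, adjusted *p* = 0.881, background 24.7%), and its intermediate low at 24 h is not visible in this comparison. MC gave 0.14 ± 0.13 (limma, adjusted *p* = 0.371, background 29.2%) and HEC gave 0.30 ± 0.19 (limma, adjusted *p* = 0.185, background 32.6%). The median of all genes moved by 0.48 on GLU and by 0.40 on WB in the opposite direction. With rescaled values, the changes were -2.23 on GLU and -1.61 on WB, and the value for HEC turned to -0.17.

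Whether that course differed from the course on NC was tested as a difference of the 2 changes over 12 libraries, called at an adjusted *p* of at most 0.05. It differed on GLU, by -1.39 ± 0.12 (limma, adjusted *p* = 1.23e-06), in a comparison where 58.6% of all genes differed. It differed on WB, by -0.89 ± 0.17 (limma, adjusted *p* = 0.000670), where 65.1% of all genes differed. On MC the difference was 0.47 ± 0.17 (limma, adjusted *p* = 0.0507, background 35%), a borderline value that passed with rescaled values (0.64, limma, adjusted *p* = 0.0118) and with the replicate number as a block (limma, adjusted *p* = 0.0380). It also passed without replicate 2 of MC at 4 h (0.54), replicate 3 of NC at 4 h (0.50), replicate 3 of MC at 48 h (0.54) or replicate 2 of NC at 48 h (0.53). On HEC the difference was 0.63 ± 0.23 (limma, adjusted *p* = 0.0762, background 18.9%), and it passed without replicate 1 of HEC at either time, with 0.76. On AV it was 0.30 ± 0.18 (limma, adjusted *p* = 0.242, background 29.9%).

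Steps between consecutive time points were added after the dip on AV at 24 h had been seen. They are reported as a description of the course, with 5 of 18 steps called, against backgrounds of 7.53% to 30.7% of genes. On AV, *PoxMBF1* fell by 2.17 ± 0.22 from 12 h to 24 h (limma, adjusted *p* = 0.000620, background 30.7%) and rose by 1.75 ± 0.11 from 24 h to 48 h (limma, adjusted *p* = 1.59e-05, background 15.8%). On NC, it fell by 1.22 ± 0.15 from 12 h to 24 h (limma, adjusted *p* = 0.000517, background 11.1%). On GLU, it fell by 1.14 ± 0.23 from 12 h to 24 h (limma, adjusted *p* = 0.00883, background 15.8%), a call that was lost without replicate 1 of GLU at 24 h (-0.97). On WB, the fall came later, by 1.33 ± 0.13 from 24 h to 48 h (limma, adjusted *p* = 0.000116, background 11.7%). From 4 h to 12 h on NC, the step of 0.83 ± 0.11 was just under 2-fold (limma, adjusted *p* = 0.00132, background 18.2%). No step on MC or HEC was called, and their values ran from -0.21 to 0.35. In the AV step to 24 h, 98.0% of all genes tested had a value above that of *PoxMBF1*.

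Genes with a like pattern were ranked by Pearson's r with *PoxMBF1* over the 24 condition means of log2(FPKM + 1), among 8897 other genes. These means share media and time courses, so r is a description. The median r was -0.32 (-0.013 with rescaled values), 20 genes had an r above 0.9 and 2 had an r below -0.9. The first 5 were *POX06221* (r = 0.956), *POX06446* (0.956), *POX09076* (0.949), *POX06033* (0.944) and *POX05963* (0.942), which have no annotation in the lists used here. All 5 remained among the first 20 with rescaled values, and 3 of them with Spearman's rho. The only gene of the first 20 with an annotation here is *POX02034* (r = 0.939), the sixth. Its product is annotated as stress-induced-phosphoprotein 1, a co-chaperone with tetratricopeptide repeats, and it is named because of this annotation, after its value was seen.

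*POX05963* moved on a scale close to that of *PoxMBF1*, with condition means from 52.8 to 382 FPKM. It was called higher than on NC in 10 comparisons and lower in none. In AV at 24 h it had 77.9, 76.2 and 68.1 FPKM, against 212, 339 and 294 FPKM in AV at 48 h, with no overlap. The other 4 had far wider ranges. *POX09076* ran from 31.6 to 10540 FPKM and *POX06446* from 24.0 to 6038 FPKM between condition means. *POX06221* ran from 32.2 to 1226 FPKM and *POX06033* from 13.9 to 842 FPKM. Each of these 4 was called higher than on NC in 15 of 20 comparisons, and *POX06221* was called lower in AV at 24 h (-1.47). Their log2 fold changes on HEC at 48 h were 8.0 for *POX09076*, 7.71 for *POX06446*, 5.56 for *POX06033* and 4.72 for *POX06221*, beside 1.87 for *PoxMBF1*. *POX05963* and these 4 genes were picked for their r over these same libraries. Calls and lows shared with *PoxMBF1* are therefore built into the choice. The share of all genes called higher in 15 or more comparisons is not given here.

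At the other end of this ranking were *POX03671* (r = -0.909) and *POX01791* (r = -0.905), both at low levels. With rescaled values, r was -0.764 for *POX03671* and -0.92 for *POX01791*, and Spearman's rho was -0.70 and -0.75. Both were picked for their r, so calls opposite to those of *PoxMBF1* are built into the choice. Condition means of *POX01791* ran from 6.27 to 43.8 FPKM. Its libraries of AV at 24 h had 34.4, 36.7 and 38.8 FPKM, above all AV libraries of 4 h and 48 h. It was called lower than on NC in 12 comparisons and *POX03671* in 6, and neither was called higher in any.

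**Figure D4:**
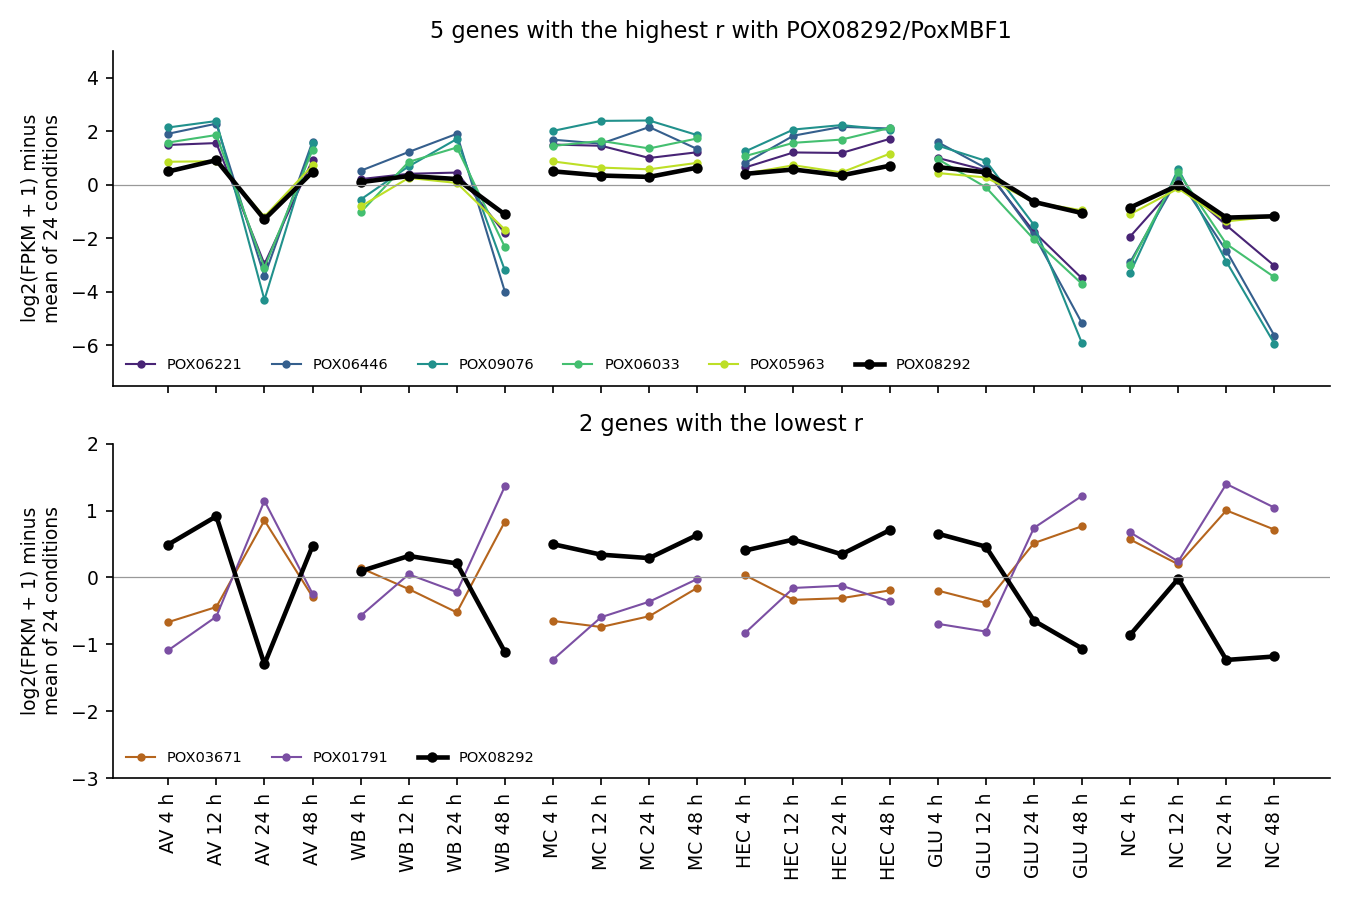
log2(FPKM + 1) of each condition mean minus the gene's mean over 24 conditions (vertical axis), in order of medium and time (horizontal axis); the black line is *POX08292*/*PoxMBF1*. Upper panel, the 5 genes with the highest r, which share the low at 24 h on AV and the late decline on WB, GLU and NC. Lower panel, the 2 genes with the lowest r, which are high in those conditions. Both likenesses are built into the choice of genes by r.

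Among the TF list, which the study chose on these samples, 273 other genes were tested and their median r with *PoxMBF1* was -0.32, the same as over all genes. The highest was that of *POX07938* (r = 0.856), which has a fungal Zn2Cys6 DNA-binding domain. Its condition means ran from 36.2 to 934 FPKM, and it was called higher than on NC in 9 comparisons. In AV at 24 h it had 89.1, 89.98 and 98.9 FPKM, against 529, 623 and 566 FPKM at 48 h. *POX02035* (r = 0.815), annotated as the Rpc34 subunit of RNA polymerase III, was called higher in 4 comparisons. The bZIP gene *POX07854* (0.727), the C2H2 zinc finger gene *POX04023* (0.681) and *POX09610* (0.638), with a CENP-B-type domain and at most 6.1 FPKM in any library, came next. The lowest were the Zn2Cys6 genes *POX09272* (r = -0.898), called lower in 8 comparisons, and *POX04901* (r = -0.860), called lower in 2. The order at both ends depended on the scaling. With rescaled values, *POX02035* (0.918) was above *POX07938* (0.879), and *POX04901* (-0.826) was below *POX09272* (-0.784).

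Since the yeast homolog works with a bZIP activator, the bZIP genes were looked at as a group. The list holds genes with a bZIP domain among the DEGs that the study picked on these samples. More calls than over all genes are therefore built into it. Of 17 listed, 16 passed the filter on low values. Their r with *PoxMBF1* ran from -0.66 to 0.73, with a median of -0.18, and 6 were above 0. With rescaled values, the median turned to 0.097 and 10 were above 0. Over the 20 comparisons with NC, 8.44% of their values were called higher and 8.75% lower, against 5.28% and 10.2% for all genes tested. With rescaled values, the shares were 11.9% and 5.31% for the bZIP genes and 7.21% and 6.81% for all genes. At most 5 were called higher and at most 5 lower in any comparison, and the median log2 fold change of the list lay between -0.37 and 0.24. That of all genes lay between -0.42 and 0.10. The share of genes called lower ran from 1.56% to 21.7% between comparisons.

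*POX07854* was the bZIP gene with the highest r with *PoxMBF1*, though *POX07348* was above it by Spearman's rho (0.78 against 0.63). *POX07854* and *PoxMBF1* were each called higher than on NC in 10 comparisons, 8 of them the same. The share of all genes with as many shared calls is not given here. *POX07854* was not called on MC (0.26) or HEC (0.73) at 48 h, where the changes of *PoxMBF1* were 1.81 and 1.87. On GLU at 12 h it had 349.8, 388.5 and 394 FPKM, against 158, 180.1 and 158 FPKM on NC, a difference of 1.18. At 24 h the difference on GLU was 1.64, where *PoxMBF1* had 0.56. *POX07348* (r = 0.608), with a Yap1 redox domain, known in yeast from the oxidative stress response, was called higher on HEC at 48 h (1.17) and lower on WB at 4 h (-1.44). Without WB at 4 h its r was 0.878, above the 0.744 of *POX07854*. In these WB libraries *POX07348* had 56.6, 54.6 and 93.4 FPKM, its lowest levels, while *PoxMBF1* was 0.95 above NC.

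After *POX07854*, the bZIP genes *POX05374*, *POX00972* and *POX02338* were called higher most often, each in 4 comparisons. *POX05374* had the highest mean level of them, and its condition means ran from 384 to 2010 FPKM, above that of *PoxMBF1* in 21 of the 24 conditions. It reached 2032.7, 1950.2 and 2048 FPKM on GLU at 12 h, and its r was 0.30. On the other side, *POX03016*, annotated as Atf1, a bZIP factor of the osmotic stress response, and *POX02889* were each called lower in 6 comparisons. The lowest r were those of *POX06666* (-0.66), called lower in 6 comparisons and higher on GLU at 48 h (1.14), and *POX06116* (-0.42).

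A list of 13 other regulators of plant-biomass-degrading enzymes named by the study was set beside *PoxMBF1*. It is not complete, and the carbon catabolite repressor CreA is not on it. The study named most of them from these same libraries, as strongly changed TF genes or members of co-expression modules. An excess of calls over all genes is therefore built into the list. Their r with *PoxMBF1* lay between -0.71 and 0.33, with 2 above 0. With rescaled values, r lay between -0.59 and 0.48 with 4 above 0, and those of ClrB (0.017) and *POX01474* (0.089) turned positive. Over the 20 comparisons, 15% of their values were called higher and 20.8% lower, against 5.28% and 10.2% for all genes tested. With rescaled values, 17.3% were called in each direction, and with deposited values the list's median log2 fold change ran from -1.19 to 0.58.

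ClrA (*POX03837*, r = 0.33) and ClrB-2 (*POX02071*, r = 0.09) were the regulators called higher most often, in 10 and 11 comparisons. ClrA was highest against NC on MC at 4 h (3.59), and ClrB-2 on AV at 24 h (2.9), the condition in which *PoxMBF1* had its lowest mean. ClrB (*POX01960*, r = -0.10), an activator of cellulase genes, was called higher on AV, WB and MC at 24 h and 48 h, with 1.19 to 2.1, and lower on WB at 4 h (-1.59). The xylanase activator XlnR (*POX05324*, r = -0.33) was called in no comparison, with log2 fold changes from -0.83 to 0.57.

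AmyR (*POX03890*, r = -0.54), the activator of amylase genes, was called lower in 11 comparisons, down to -3.54 on MC at 24 h. *POX02484* (r = -0.71), with a Zn2Cys6 domain, was the regulator most opposite to *PoxMBF1*, called lower in 12 comparisons and down to -4.10 on WB at 4 h. The protease regulator PrtT (*POX03888*, r = -0.45) was called lower in 8. PoxCxrA (*POX01167*, r = -0.38) and PoxCxrB (*POX04420*, r = -0.43), which regulate cellulase and xylanase genes, were called lower in 6 and 5 comparisons, and PoxCxrB was called higher on WB at 48 h (1.24). BrlA (*POX06534*, r = -0.02), which directs the formation of conidia, was called lower in 4, with -4.84 on GLU and -4.66 on WB at 48 h, and higher on MC at 24 h (1.71). The Zn2Cys6 genes *POX01118* (r = -0.35) and *POX01474* (r = -0.05) were called higher in 3 and 2 comparisons, *POX01474* with 2.67 on MC at 48 h, and *POX01118* was called lower on GLU at 12 h (-1.48). The Myb gene *POX01678* (r = -0.20) was called higher in 5 and lower in 6, the latter on WB and GLU only.

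**Figure D5:**
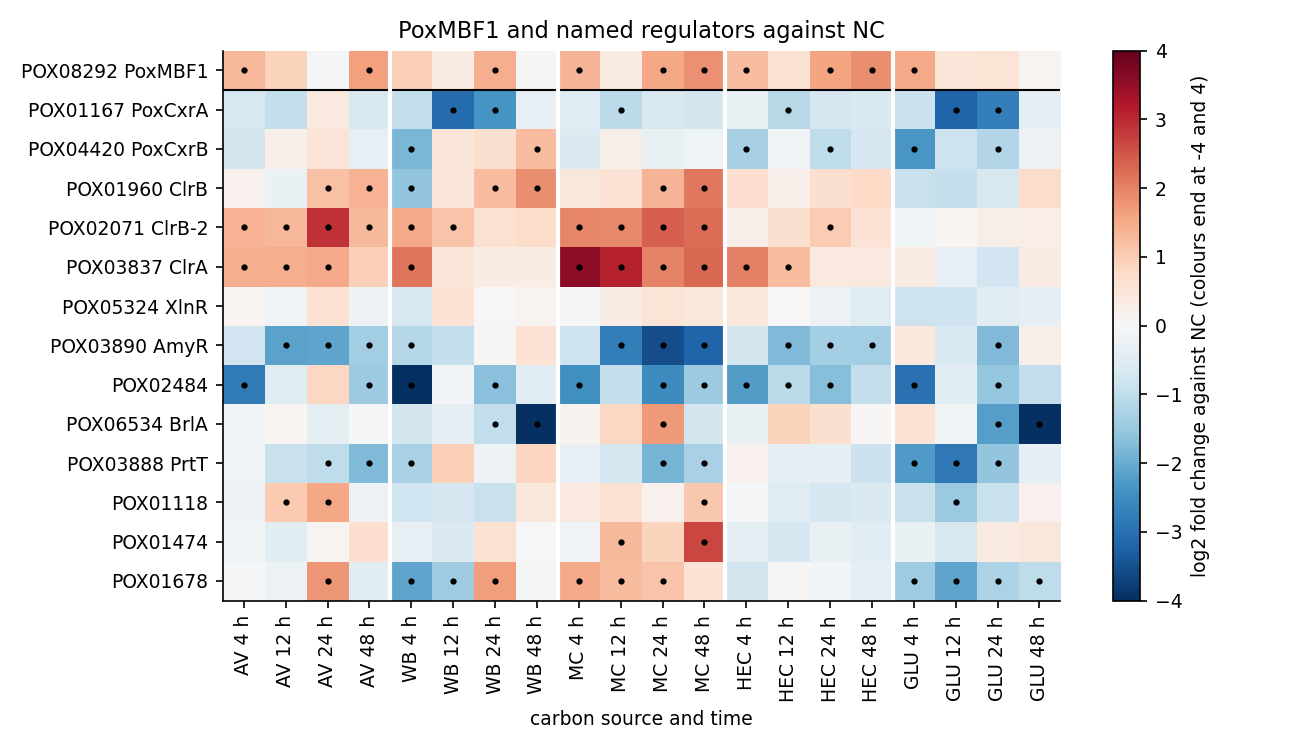
log2 fold change against NC (colour, limits at -4 and 4, which 3 cells exceed) of *PoxMBF1*, in the top row, and 13 other regulators in 20 comparisons, ordered by carbon source and time; black dots mark called values. *PoxMBF1* is called higher in 10 cells and lower in none, including GLU at 4 h. There, none of the 13 other regulators is called higher, which is near the 7.78% of all genes called higher.

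Cellulase and xylanase genes were set beside *PoxMBF1* as a list of 24 genes named in the text of the study, which does not hold all such genes of the genome. Their r with *PoxMBF1* lay between -0.61 and 0.39 (median 0.24), 18 of them above 0, and 20 with rescaled values. Over the 20 comparisons with NC, 56.7% of their values were called higher and 6.25% lower, against 5.28% and 10.2% for all genes tested. The study named many of them as DEGs or members of co-expression modules of these same libraries. A high share of calls is therefore built into the list. In AV at 24 h, 19 of 24 were called higher (4.12% of all genes) with a median log2 fold change of 5.79, while *PoxMBF1* was at the level of NC. On GLU at 4 h, where *PoxMBF1* was higher by 1.51, 1 was called higher and 8 lower (7.78% and 17.5% of all genes), with a median of -0.39. On HEC and MC at 48 h, 13 and 18 were called higher (4.96% and 4.32% of all genes), with medians of 1.83 and 5.61, in conditions in which *PoxMBF1* was higher too.

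The highest r in this list were those of *POX06079* (0.39), an intracellular beta-glucosidase, and *POX05570*/*Cel45A* (0.35), an endoglucanase, each called higher in 16 comparisons, which are all those on AV, WB, MC and HEC. *POX06079* reached 9.17 on MC at 48 h and *Cel45A* reached 9.23 on MC at 12 h. *Cel45A* was also called lower on GLU at 24 h (-1.14). The lowest r were those of *POX08882* (-0.61), a putative beta-glucosidase called lower in 10 comparisons, and *POX01437* (-0.34), which was called in none. The r of *POX01437* turned to 0.59 with rescaled values, the highest of the list, so its direction and its place in the list depend on the scaling. With rescaled values, *POX06079* had 0.45 and *Cel45A* had 0.38.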

How the data were processed

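RNA of *P. oxalicum* Δ*PoxKu70* mycelium was sequenced by the authors, and the levels of genes were deposited by the authors as FPKM per gene and library. The methods of the study name SOAPnuke, HISAT, Bowtie2 and RSEM, whereas the submitters' processing notes name BWA 0.7.10-r789, Bowtie2 2.1.0, RSEM 1.2.12 and DESeq2, so the aligner is not settled. The authors state no further scaling between libraries. Read counts were not used here, so counting error is unknown. Among 72 libraries, weakly expressed genes gave a single-read worth of 0.909 to 1.55 relative to the others, from 3 to 30 genes a library, too few for a measure of depth.

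A gene left out of a library was set to 0. Values were transformed to log2(FPKM + 1), and genes whose FPKM averaged 1 or more over all libraries were fitted with limma 3.58.1 (R 4.3.3, variance trend) on the libraries of each comparison. Genes were called when *p* before adjustment was no higher than 0.05 and the log2 difference was 1 or more in size, the thresholds of the study, differences of time courses at an adjusted *p* of at most 0.05, and Benjamini-Hochberg adjustment covered all 8898 genes. Permutations, correlations and counts were computed in Python 3.11.15 with numpy 2.4.6 and pandas 2.3.3. The fits and the permutation test were tested on simulated data.

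Groups and replicate numbers come from the short names in the labels. Alternatives were no filter, a pseudocount of 0.1, the replicate number as a block, all 72 libraries in 1 fit, rescaling by the median of ratios, a call on adjusted *p* and leaving out each library. Named genes are the 5 with the highest and 2 with the lowest r among all genes and among the TF list, 2 and 2 of the bZIP list and of the cellulase and xylanase list, the bZIP genes with the most calls (2 in each direction, and those tied with them), and all 13 genes of the regulator list. The gene, the lists and the comparisons were chosen with earlier results of these data known. Gene identifiers are those of the files, and no sequence or coordinate was used.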

Additional observations from a re-analysis of the deposited data

Results flagged for a closer look

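The course of *PoxMBF1* from 4 h to 48 h differed between media in a direct test of the difference. On GLU, the change was -1.39 below that on NC (limma, adjusted *p* = 1.23e-06), and on WB it was -0.89 below that on NC (limma, adjusted *p* = 0.000670). The 3 GLU libraries of 48 h were all below those of 4 h, as were the 3 WB libraries and the 3 NC libraries. Both values kept their direction and their call in every alternative tried, with a range of -1.45 to -1.33 on GLU and of -0.99 to -0.77 on WB when each library was left out. In these 2 comparisons 58.6% and 65.1% of all genes differed, so a difference there does not set *PoxMBF1* apart from other genes.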

How the results depend on the processing

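The number of comparisons with NC called higher stayed at 10 with a pseudocount of 0.1, without a filter, in 1 fit of all 72 libraries, with the replicate block and with adjusted *p*. It was 12 with rescaled values. With any 1 of the 72 libraries removed, it was 11 without replicate 1 of AV at 12 h or replicate 2 of NC at 4 h and 10 otherwise. These counts without a library and the 18 steps between time points were chosen after seeing the data. The number called lower was 0 in each of these settings. The mean differences from NC in the permutation test kept their direction and call with rescaled values, a pseudocount of 0.1 and without each time point.

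Rescaling brought WB against NC at 4 h (1.14), AV against NC at 12 h (1.31) and MC against GLU at 24 h (1.21) past 2-fold, and the MC course against NC past its threshold (0.64). It turned the sign of values near 0: HEC against GLU at 4 h (0.0036) and 12 h (-0.079), WB against GLU at 48 h (0.12), HEC at 48 h against 4 h (-0.17), and the steps from 4 h to 12 h on WB (-0.015) and HEC (-0.20). The ratio of the highest to the lowest condition became 7.25. Called bZIP values became 17 lower (from 28) and 38 higher (from 27), and called cellulase and xylanase values 19 lower (from 30) and 282 higher (from 272). Over all genes tested, the share called lower went from 10.2% to 6.81% and the share called higher from 5.28% to 7.21%. The cause was not tested.

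In 1 of 20 comparisons with NC (AV at 12 h), every same-numbered pair of libraries deviated together with an r over 0.1. Over all pairs, r ran from -0.374 to 0.642. Numbers were therefore not used to pair samples in the main fits. Pairing between carbon sources or between times was not checked. With the replicate block, the MC course against NC (0.47, limma, adjusted *p* = 0.0380) was the only call of 65 that changed. The same course passed without a filter (0.47), and the HEC course in 1 fit of all libraries (0.63).

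Leaving out 1 library each gave 0.91 to 1.00 for WB against NC at 4 h, 0.67 to 1.11 for AV against NC at 12 h, -0.18 to 0.081 for AV against NC at 24 h and -0.041 to 0.18 for WB against NC at 48 h. Against GLU it gave -0.057 to 0.21 for HEC at 12 h, 0.72 to 1.12 for WB, 0.80 to 1.21 for MC and 0.86 to 1.27 for HEC at 24 h, and -0.16 to 0.056 for WB at 48 h. It gave -0.15 to 0.063 for AV at 48 h against 4 h, 0.36 to 0.54 for the MC course and 0.49 to 0.76 for the HEC course against NC. For the steps it gave -0.22 to 0.0013 on WB and -0.12 to 0.058 on MC from 12 h to 24 h, -1.37 to -0.97 on GLU from 12 h to 24 h, and -0.068 to 0.19 on NC from 24 h to 48 h. In the other comparisons, leaving out a library changed neither direction nor call, though GLU against NC at 24 h was 0.33 and AV against GLU at 24 h -0.37 without replicate 2 of GLU. Calls near the threshold rest on 3 libraries a condition, and counting error is unknown.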
